A study of Mus musculus with 26 samples.

Results

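The 31 genes described here encode the enzymes that bring long-chain fatty acids into mitochondria, oxidize them and handle ketone bodies and propionate, in brown adipose tissue (BAT) of mice kept warm or exposed to cold. They were taken as a named list out of 50686 genes listed. No value of these data was in the rule, although the list was chosen with earlier results of these data known. All 31 were listed once and passed the filter on low counts that left 17286 genes for testing, Bdh1 only through the cold groups. RNA-sequencing was carried out on BAT, which the labels call supraclavicular, from 26 male mice in 4 groups, which shared a C57BL/6J background, an age of 12 to 16 weeks and a stay of 14 to 18 days at thermoneutrality (30 °C in the labels, 29 °C in the methods). At 30 °C there were 7 control mice (WT in the labels) and 7 mice labelled Afadin KO. After a further 6 h at 5 °C there were 5 control mice and 7 mice labelled Afadin KO. By the study's methods, KO stands for mice in which Mllt4 flox/flox (the gene of Afadin, now Afdn) was combined with Adiponectin-Cre, which acts in adipocytes of white as well as brown fat, and the controls were littermates. Each sample is numbered as a mouse of its own, so that the spread given below is between mice.

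Total counts per mouse ran from 12705969 to 25732258, with a median of 17237377, and each of the 73 pairs of mice within a group differed by more than sampling noise. Warm control mouse 7 stood apart from its group, at a chi-square per gene of 168 to 237 in its pairs, against at most 36 between the other warm control mice. Pairs of cold mice labelled KO reached 198. Afdn did not mark the label at 30 °C, where mice labelled KO differed from control mice by -0.01 on the log2 scale (SE 0.08) with an adjusted p of 0.992. At 5 °C it was -0.33 (SE 0.09, adjusted p = 0.116), and the highest of the 7 mice labelled KO was under the lowest of the 5 controls (p = 0.00253 for this gene by an exact permutation test, two-sided). Kng1, which lies near Adipoq, the gene of Adiponectin, on chromosome 16, had at most 1 count in any control mouse and 123 to 389 counts in mice labelled KO. As Afdn did not separate the warm groups, the mice are called by their labels throughout. The Afdn and Kng1 values are RNA of whole tissue. At the protein level, the paper reports that the rise of Afadin in the cold was reduced in the knockout mice. Summed markers of brown adipocytes, 11 of 11 found, were at 7569.9 to 9638.7 CPM (read counts scaled to a common library total with TMM factors) at 30 °C and 25993 to 33060.0 at 5 °C, and all 11 were present in every group. The sum includes Ucp1, whose mRNA the paper reports as induced by cold. Its rise is thus not a measure of the number of brown adipocytes. The 11 skeletal muscle markers were also all found, and their sum differed widely between mice of each group, from 8.38 to 5949.6 CPM at 30 °C and from 1.63 to 8790.9 at 5 °C. In bulk tissue, fewer cells of a type and less RNA per cell cannot be told apart.

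Fatty acids enter the mitochondrial matrix as carnitine esters: a CPT1 enzyme on the outer membrane makes them, a carrier exchanges them, and Cpt2 on the inner membrane turns them back into acyl-CoA. Each turn of β-oxidation then removes a piece as acetyl-CoA through a dehydrogenase, a hydratase, a further dehydrogenase and a thiolase, and the electron transfer flavoprotein carries electrons of the first step to the respiratory chain. Brown fat burns much of its heat-producing fuel this way, and malonyl-CoA, the building block of fatty acid synthesis, holds back CPT1.

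Promoter sequence was taken from RefSeq (GRCm38.p6, 250 bases before to 50 after the start of transcription), where 26 of the 31 genes matched, with 28 windows. Cpt1b, Acad9, Acaa2, Decr1 and Acat1 had no entry. The first sequence is shown because Hadha and Hadhb, which encode the α and β subunits of the mitochondrial trifunctional protein, lie head to head on chromosome 5, with starts 273 bases apart. Their windows share 228 bases, in capitals, in the window of Hadhb (chr5:30155003-30155302, plus strand):

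Hadhb: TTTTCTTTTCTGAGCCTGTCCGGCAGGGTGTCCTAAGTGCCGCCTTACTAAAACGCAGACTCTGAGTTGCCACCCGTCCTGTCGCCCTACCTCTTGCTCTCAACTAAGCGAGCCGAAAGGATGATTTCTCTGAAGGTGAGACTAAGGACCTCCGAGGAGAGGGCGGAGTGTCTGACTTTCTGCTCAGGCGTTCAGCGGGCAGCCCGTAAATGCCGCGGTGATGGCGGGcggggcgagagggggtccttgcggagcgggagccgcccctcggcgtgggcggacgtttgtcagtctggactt

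The next pair is shown because Acad12 and Acad10 are neighbours on chromosome 5 that both had lower levels in cold mice but by unequal amounts. Over 216 aligned columns their windows (chr5:121618889-121619188 and chr5:121660461-121660760, both minus strand) were identical at 168, or 77.8%, and the identical bases are in capitals:

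Acad12: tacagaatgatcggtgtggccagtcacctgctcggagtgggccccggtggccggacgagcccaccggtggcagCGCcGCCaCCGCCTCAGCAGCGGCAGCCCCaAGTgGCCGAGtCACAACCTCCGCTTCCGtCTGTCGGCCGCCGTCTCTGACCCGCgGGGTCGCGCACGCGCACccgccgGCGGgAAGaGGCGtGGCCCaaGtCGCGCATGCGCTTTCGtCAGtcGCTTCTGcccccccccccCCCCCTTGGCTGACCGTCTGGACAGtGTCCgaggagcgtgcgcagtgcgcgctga
Acad10: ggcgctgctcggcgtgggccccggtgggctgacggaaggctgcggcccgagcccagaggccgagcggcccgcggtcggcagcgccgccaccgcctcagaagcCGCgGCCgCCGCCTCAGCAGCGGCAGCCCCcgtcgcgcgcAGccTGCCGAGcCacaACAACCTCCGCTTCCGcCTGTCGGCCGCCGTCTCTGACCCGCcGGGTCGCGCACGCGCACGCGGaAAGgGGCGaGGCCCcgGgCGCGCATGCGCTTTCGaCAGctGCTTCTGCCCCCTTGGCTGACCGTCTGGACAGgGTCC

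The last pair is from Etfdh (chr3:79628718-79629017, minus strand), with the largest increase in cold control mice among genes above 10 counts in every mouse, and Cpt1a (chr19:3323051-3323350, plus strand), with the smallest p for a difference between the cold responses. Capitals mark the half-site AGGTCA of nuclear receptors, or the core TGACG that cyclic AMP-responsive factors read, on either strand:

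Etfdh: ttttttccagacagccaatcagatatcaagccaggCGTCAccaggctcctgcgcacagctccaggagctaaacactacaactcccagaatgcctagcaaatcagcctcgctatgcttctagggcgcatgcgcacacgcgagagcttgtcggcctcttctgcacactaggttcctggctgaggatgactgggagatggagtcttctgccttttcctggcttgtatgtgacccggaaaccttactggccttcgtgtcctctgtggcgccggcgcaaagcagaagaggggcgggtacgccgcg
Cpt1a: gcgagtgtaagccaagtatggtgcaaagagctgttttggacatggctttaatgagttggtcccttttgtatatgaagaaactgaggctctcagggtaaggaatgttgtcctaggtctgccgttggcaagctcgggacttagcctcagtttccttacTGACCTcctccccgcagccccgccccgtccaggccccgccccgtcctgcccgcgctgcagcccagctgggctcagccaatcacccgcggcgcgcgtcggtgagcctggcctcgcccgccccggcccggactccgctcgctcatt

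AGGTCA was in 6 of the 28 windows, against 16.3% of 32851 windows of all genes, and these belonged to Acadm, Acadvl, Cpt1a, Echs1 and Pcca. TGACG was in 9 of the 28, against 20.8% of all windows. The whole site TGACGTCA, which contains TGACG, was in 0 of the 28 and 1.79% of all, TCAAGGTCA, which contains AGGTCA, in 0 and 0.423%, and 2 AGGTCA copies 1 base apart, the DR1 site, in 0 and 0.0396%. These are matches of letters in a short window.

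Levels were compared between genes as CPM per kilobase of annotated exon, a length that sums all isoforms and so understates a gene that uses a part of them. Acaa2, the thiolase that closes the cycle for medium and long chains, had the highest level per length in all 4 groups, at 1381.8 ± 177 CPM per kilobase (SD, n = 7) in control mice at 30 °C. Acadl followed with 511 ± 73.3, and Acadvl, Etfa and Acadm with 373, 325 and 305. Acadvl and Etfa, and Etfa and Acadm, overlapped within 1 SD, as did most neighbours in the order below them. Of the transferases, Cpt2 had 82.4 ± 8.81 CPM per kilobase, Cpt1b 13.2 ± 2.08 and Cpt1a 3.06 ± 0.264. Cpt1a thus came 30th of 31 in every group, above Bdh1 alone. In cold control mice Etfdh moved from 18th to 12th, Mlycd from 25th to 20th and Hadha from 11th to 6th, while Hadh moved from 7th to 13th.

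**Figure D1:**
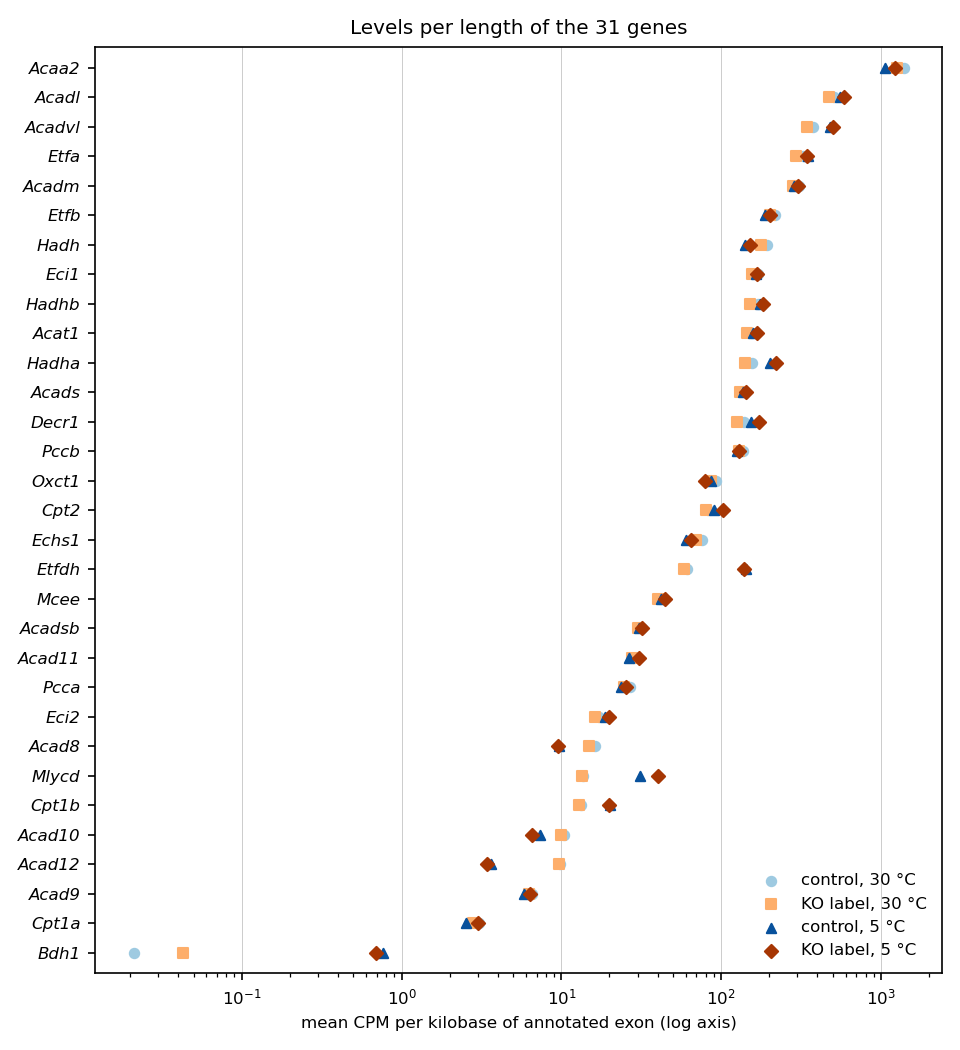
Mean CPM per kilobase of annotated exon (log axis) of the 31 genes, ordered by control mice at 30 °C. Each symbol is the mean of 1 group of 5 or 7 mice. Acaa2 is at the top in every group, and Bdh1 is the gene whose symbols lie farthest apart.

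The cold response was asked first in control mice, at 5 °C against 30 °C. Of the 31 genes, 6 were higher (Cpt1b, Acadvl, Hadha, Etfdh, Bdh1 and Mlycd), 9 were lower (Cpt1a, Acad8, Acad9, Acad10, Acad12, Hadh, Echs1, Acaa2 and Etfb) and 16 did not pass the threshold of 0.05 on the adjusted p (edgeR, quasi-likelihood). Of all genes tested, 31.6% were higher and 33.4% lower, so that neither share of the enzymes stood above the background. At least 2-fold changes were found in 4 of them (Acad12, Etfdh, Bdh1 and Mlycd), against 24.9% of all genes, and the median size of their log2 fold change was 0.17 against 0.55. The medians with sign were -0.04 for the enzymes and -0.01 for all genes. With library size alone in place of TMM factors 5 were higher and 12 lower, against 4165 and 6243 of all 17286 genes, while the median of all genes moved to -0.14. With upper-quartile factors 6 were higher and 14 lower, against 4751 and 6579 of all genes, with a median of -0.12. Of the 15 calls, 13 held with each mouse left out in turn.

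In mice labelled KO the same comparison gave 13 higher and 4 lower, against 33.7% and 34.9% of all genes, and 4 at least 2-fold, against 25.0%. The 6 genes that were higher in control mice were also higher here, and Acad8, Acad10, Acad12 and Hadh were lower in both. Cpt2, Acadl, Hadhb, Eci2, Decr1, Etfa and Acat1 were higher past the threshold here and did not pass it in control mice. This split rests on the scaling: with library size alone 6 were higher and 12 lower, against 3223 and 8384 of all 17286 genes. None of those 7 genes was then past the threshold as higher, and the all-gene median went from -0.03 to -0.34. With upper-quartile factors 7 were higher and 8 lower, against 4694 and 7369 of all genes, with a median of -0.18. Measured from the median of all genes, the median of the 31 was 0.15 higher with TMM factors and 0.16 higher with library size alone. A difference between the cold responses of the 2 genotypes passed the threshold for 0 of the 31 genes, as described further on.

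**Figure D2:**
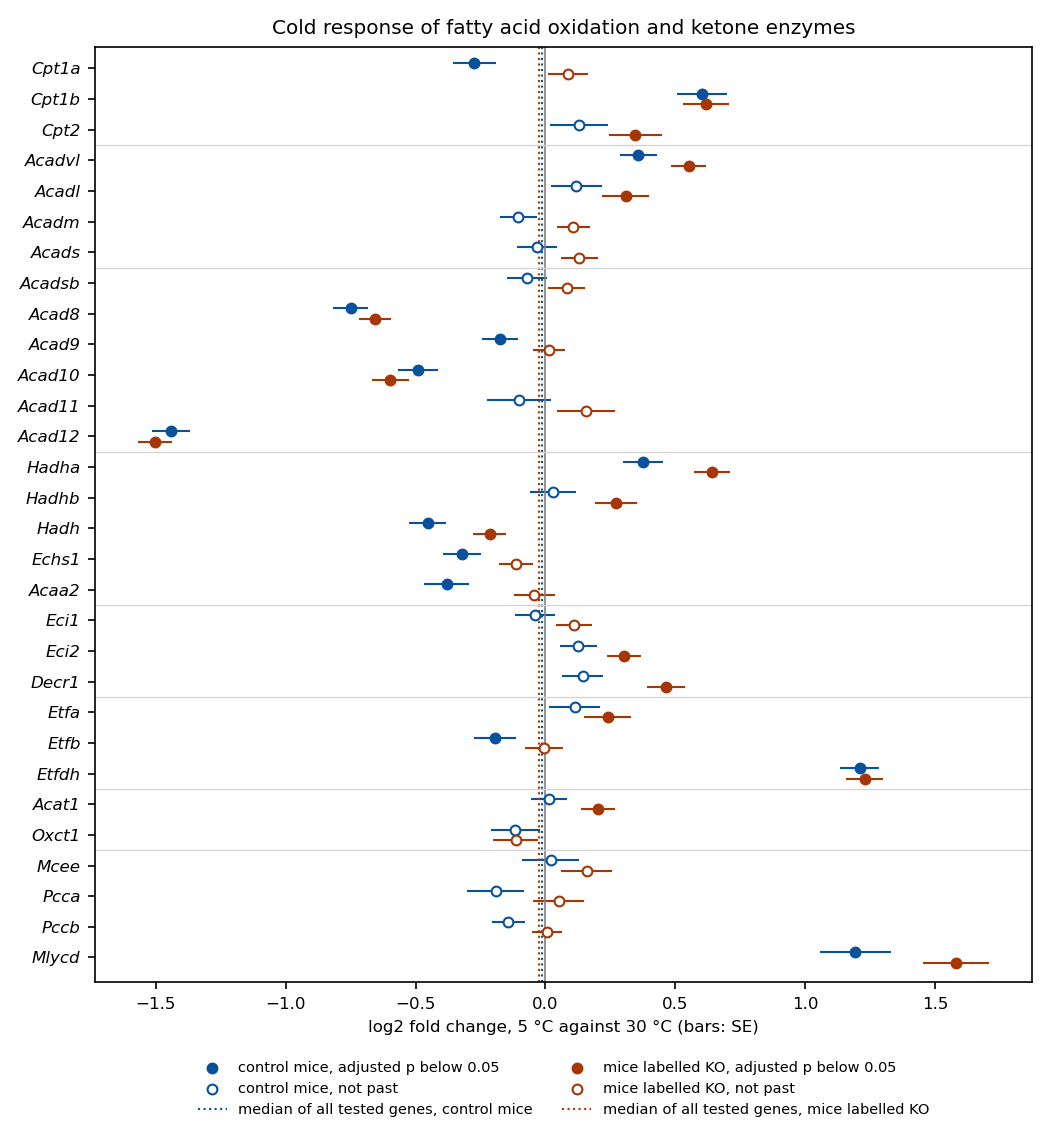
Log2 fold changes (5 °C against 30 °C, bars are SE) of 30 genes in control mice and in mice labelled KO, grouped by role with grey lines. Filled points passed an adjusted p of 0.05, and dotted lines mark the median of all tested genes. Bdh1, at 5.02 and 3.91, is not drawn, and Etfdh, Mlycd and Acad12 lie far from the other genes in both genotypes.

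Of the carnitine shuttle, Cpt1b rose and Cpt1a fell in cold control mice, while Cpt2 had a log2 fold change of 0.13 (SE 0.11). Cpt1b, the form typical of muscle and brown fat, had a lowest, median and highest level of 35.9, 43.6 and 55.1 CPM in control mice at 30 °C. The 5 cold control mice had 70.6, 66.6, 77.2, 61.6 and 62.7 CPM. All cold mice lay above all warm ones, and the log2 fold change was 0.60 (SE 0.09, adjusted p = 3.61e-06). Among mice labelled KO, Cpt1b ran from 39.6 to 48.7 CPM (median 43.0) at 30 °C and from 56.7 to 81.5 (median 65.7) at 5 °C, again without overlap, with a log2 fold change of 0.62 (SE 0.09). In the annotation, 81.4% of the exon length of Cpt1b (chromosome 15, 89416405 to 89425863) is shared on the same strand with the gene Gm44502, which was not found among the genes listed. Of the 100-base stretches of Cpt1b, the length of the reads, 75.6% occur in transcripts of that gene. Warm control mouse 7, with the highest skeletal muscle marker sum of that temperature at 5949.6 CPM, had the lowest Cpt1b of its group at 35.9 CPM. In the other groups the highest sums were in warm mouse 12 labelled KO (1684.1 CPM), cold control mouse 16 (5467.0) and cold mouse 25 labelled KO (8790.9). Their Cpt1b was 39.6, the lowest of that group, 70.6 and 67.7 CPM. Cold mouse 24 labelled KO, with a sum of 4230.7 CPM, had the highest Cpt1b at 81.5. The part of muscle in Cpt1b was not tested.

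Cpt1a, the form best known from liver, had 20.04, 23.8 and 25.9 CPM as its lowest, median and highest values in control mice at 30 °C. The cold control mice had 18.2, 19.2, 19.4, 19.6 and 20.3 CPM. The cold values lay at the lower edge of the warm ones with a small overlap, and the log2 fold change was -0.27 (SE 0.08, adjusted p = 0.00593). Its level in mice labelled KO ran from 19.4 to 23.2 CPM (median 21.9) at 30 °C and from 18.8 to 27.1 (median 22.8) at 5 °C, with overlapping groups and a log2 fold change of 0.09 (SE 0.08). With library size alone this value turned to -0.24 and with upper-quartile factors to -0.07, where the medians of all genes were -0.34 and -0.18. The ratio of Cpt1b to Cpt1a within a mouse, which needs no scaling between mice, had a median of 1.80 (1.38 to 2.498) in warm control mice and 3.46 (3.09 to 3.99) in cold ones. The medians in mice labelled KO were 1.90 (1.81 to 2.51) and 3.05 (2.42 to 3.38), and the lowest cold value was below the highest warm one.

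The dehydrogenases that start each turn differ in the chain length they prefer, from Acadvl for the longest through Acadl and Acadm to Acads for the shortest. Of these 4 genes, 1 was higher in cold control mice and 2 in cold mice labelled KO, against 31.6% and 33.7% of all genes, and none was lower. Acadvl had 890.6, 988 and 1110.1 CPM as lowest, median and highest in warm control mice. At 5 °C the 5 control mice had 1271, 1274, 1319, 1246 and 1304 CPM. Every cold value exceeded every warm one, at a log2 change of 0.36 (SE 0.07, adjusted p = 8.67e-05), although with library size alone it was 0.24 with an adjusted p of 0.0626. Among mice labelled KO, Acadvl went from 869 to 1015.1 CPM (median 887) up to 1202 to 1642 (median 1339), also with no overlap, at 0.55 (SE 0.07). Within a mouse, Acadvl stood at 0.832 times the CPM of Acadm in warm control mice (median, 0.802 to 0.879) and at 1.15 times in cold ones (1.13 to 1.19). Of the exon length of Acadvl, 42.9% is overlapped by Dvl2 on the opposite strand, which had 149 to 472 counts per mouse against at least 12785 for Acadvl, and whether the counting used the strand is not given in the sources used here. The other 3 had log2 fold changes from -0.10 (Acadm) to 0.12 (Acadl) in control mice, and from 0.11 (Acadm) to 0.31 (Acadl, SE 0.09, adjusted p = 0.00364) in mice labelled KO.

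The remaining members of the dehydrogenase family include Acadsb and Acad8, which act in the breakdown of branched-chain amino acids, and Acad9, which also helps to assemble respiratory complex I. Of the 6, 4 were lower in cold control mice and 3 in cold mice labelled KO, against 33.4% and 34.9% of all genes, and none was higher in either. Acad12 fell the most. It had 57.1, 64.1 and 69.96 CPM as lowest, median and highest in warm control mice. At 5 °C control mice had 24.6, 27.5, 22.8, 19.96 and 23.2 CPM. The groups were far apart, at a log2 change of -1.44 (SE 0.07, adjusted p = 3.93e-15). Mice labelled KO went from 58.5 to 66.2 CPM (median 64.6) down to 20.2 to 25.3 (median 22.6), with no overlap, and Acad12 fell by 1.504 on the log2 scale (SE 0.07). Its neighbour Acad10 (chromosome 5, 121621026 to 121660514) fell by 0.49 (SE 0.08) in control mice and by 0.60 (SE 0.07) in mice labelled KO. The ratio of Acad12 to Acad10 within a mouse was 1.05 in the median of either warm group (0.947 to 1.16 over both) and 0.522 and 0.570 in the cold ones (0.462 to 0.614), with no overlap. Of the 100-base stretches of Acad12, 7.12% occur in transcripts of other genes, chiefly Acad10, and of those of Acad10, 7.45% occur elsewhere, chiefly in Acad12. Acad8 fell by 0.75 (SE 0.07) and 0.66 (SE 0.06). Acad9 had -0.17 (SE 0.07, adjusted p = 0.0274) in control mice, a call that was lost without cold control mouse 17 (adjusted p = 0.0923) or mouse 19 (adjusted p = 0.0757). Acad11 had -0.10 and 0.16, and Acadsb -0.07 and 0.08, in control mice and mice labelled KO, both with overlapping groups.

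The later steps of the cycle split in direction: Hadha rose while Hadh, Echs1 and Acaa2 fell in cold control mice. The trifunctional protein handles long acyl chains at the inner membrane, with the hydratase and the second dehydrogenase on its α subunit and the thiolase on its β subunit. Hadha, the α subunit, had 1199, 1381 and 1472 CPM as lowest, median and highest in warm control mice. The cold control mice had 1716, 1700.5, 1898, 1781 and 1712 CPM. All cold mice lay above all warm ones, at a log2 change of 0.38 (SE 0.08, adjusted p = 0.000106). Hadha in mice labelled KO went from 1098 to 1391 CPM (median 1204) up to 1606 to 2187 (median 1843), with no overlap, at 0.64 (SE 0.07).

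Hadhb, the β subunit, whose promoter is the first sequence shown above, had 806, 1096 and 1319 CPM in warm control mice. In the cold the values were 1132.5, 1186.5, 1228, 1157 and 1022 CPM. The groups overlapped throughout, and the log2 fold change was 0.03 (SE 0.09, adjusted p = 0.791) with a sign that turned in 6 of the other settings. In mice labelled KO it went from 957 to 1061.5 CPM (median 987) up to 1083 to 1408 (median 1165), with no overlap, at 0.27 (SE 0.08, adjusted p = 0.00467). With library size alone that value was -0.05, and with upper-quartile factors 0.12, neither past the threshold. Of its 100-base stretches, 14.8% occur in 2 pseudogenes, of which Gm13910 was listed at 42.1 to 74.7 CPM. The ratio of Hadha to Hadhb within a mouse had a median of 1.19 (1.10 to 1.54) in warm control mice and 1.54 (1.43 to 1.68) in cold ones. The medians were 1.20 (1.12 to 1.35) and 1.58 (1.48 to 1.80) in mice labelled KO, where warm and cold mice did not overlap. The highest warm control ratio belonged to mouse 7, named above for its muscle markers, which also had the lowest Hadhb and the lowest Acadl and Etfa of its group.

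Hadh, the soluble second dehydrogenase for medium and short chains, had 789.6, 966 and 1085 CPM in warm control mice. The cold control mice had 695, 709, 752, 675 and 672 CPM. Every cold mouse was below every warm one, and Hadh fell by 0.45 on the log2 scale (SE 0.07, adjusted p = 2.92e-06). Mice labelled KO ran from 835 to 933 CPM (median 883) at 30 °C and from 692.5 to 876 (median 716) at 5 °C, with overlap, and Hadh fell by 0.21 (SE 0.06, adjusted p = 0.00433). Acaa2, the thiolase, had 1749.5, 2105 and 2444 CPM in warm control mice. In the cold control group Acaa2 had 1599, 1543, 1713, 1573 and 1617 CPM. These lay below all warm values, at -0.38 (SE 0.09, adjusted p = 0.000446). Among mice labelled KO, Acaa2 ran from 1814 to 1966 CPM (median 1924) and from 1525 to 2191 (median 1777), a wider cold group around the warm one, at -0.04 (SE 0.08). Echs1, the hydratase of short chains, had -0.32 (SE 0.07, adjusted p = 0.000387) in control mice and -0.11 (SE 0.07) in mice labelled KO.

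Unsaturated fatty acids need Eci1, Eci2 and Decr1, which move or remove the double bonds that stop the cycle. None of these 3 passed the threshold in cold control mice, and Eci2 and Decr1 were higher in cold mice labelled KO. Decr1, the 2,4-dienoyl-CoA reductase, had 469, 537 and 596 CPM in warm control mice. The cold control mice had 586, 565, 653, 603 and 559 CPM, which overlapped the warm values, at 0.14 (SE 0.08, adjusted p = 0.111). Of mice labelled KO, all 7 cold mice lay above all 7 warm ones, from 441 to 529.8 CPM (median 478) up to 588 to 799.6 (median 636), at 0.46 (SE 0.07, adjusted p = 2.32e-06). With library size alone it was 0.15, with an adjusted p of 0.199. Eci2 had 0.13 (SE 0.07) in control mice and 0.30 (SE 0.07) in mice labelled KO, and Eci1 had -0.04 and 0.11.

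Electrons from the acyl-CoA dehydrogenases pass to the flavoprotein made of Etfa and Etfb, and from it through Etfdh to ubiquinone. In cold control mice Etfdh rose, Etfb fell and Etfa had 0.11 (SE 0.10). Etfdh had 386, 472 and 514.5 CPM as lowest, median and highest in warm control mice. At 5 °C control mice had 1013.5, 1060.0, 1124, 1054 and 1081 CPM. The warm and cold groups were separated by a wide gap, at a log2 change of 1.21 (SE 0.08, adjusted p = 2.25e-13), or 2.31-fold. In mice labelled KO it went from 379 to 519.8 CPM (median 426) up to 986 to 1165.5 (median 1030.5), at 1.23 (SE 0.07). The ratio of Etfdh to Etfa within a mouse was 0.769 (0.636 to 0.973) in warm control mice and 1.64 (1.53 to 1.85) in cold ones, and 0.807 (0.734 to 0.936) and 1.72 (1.35 to 2.04) in mice labelled KO. Etfb had 204, 255 and 293 CPM in warm control mice. The cold control mice had 234, 236, 221, 193 and 211 CPM, and the groups overlapped, at -0.20 (SE 0.08, adjusted p = 0.0356). That call was lost without warm control mouse 1 (adjusted p = 0.0898), mouse 2 (0.0727) or mouse 5 (0.0528), or without cold control mouse 18 (0.0535), mouse 19 (0.123) or mouse 21 (0.0756). In mice labelled KO, Etfb ran from 219 to 244 CPM (median 238) and from 201 to 275 (median 226), at -0.01 (SE 0.07). In the annotation, Gm45233 overlaps 58.2% of the exon length of Etfb on the same strand and had 0 to 5 counts per mouse. Etfa in mice labelled KO had 0.24 (SE 0.09, adjusted p = 0.01998), a call lost without warm mouse 8, 9 or 12 or cold mouse 24 or 25 (adjusted p from 0.0521 to 0.0709).

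**Figure D3:**
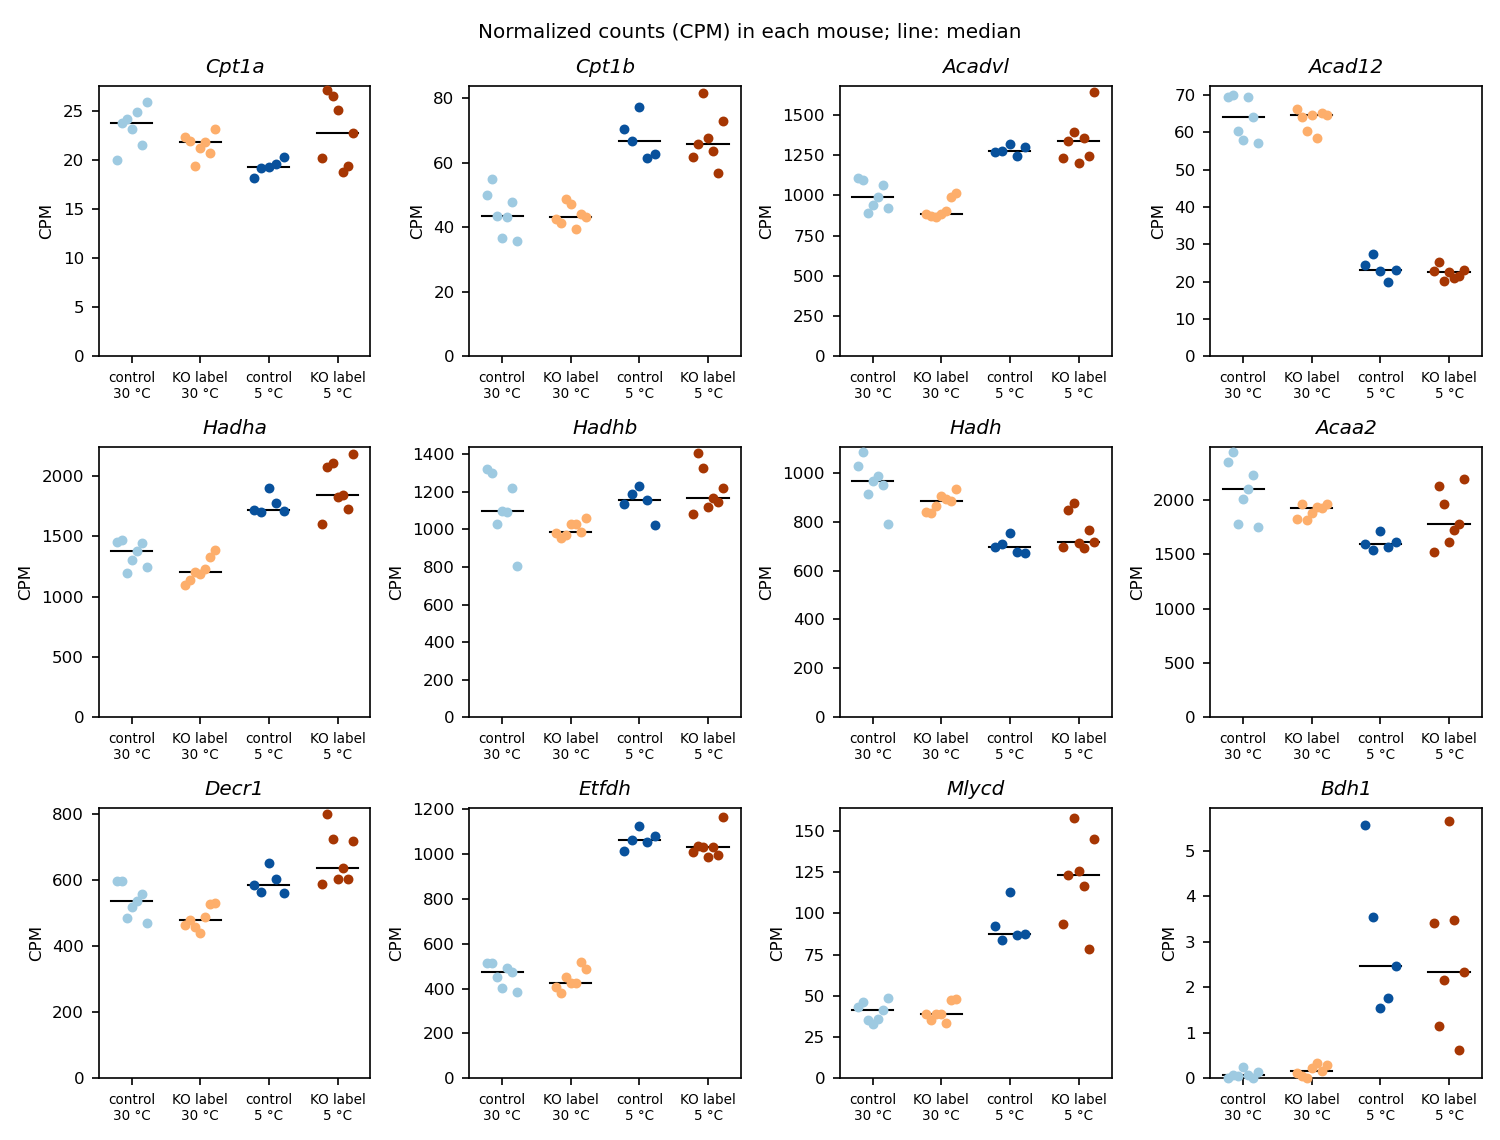
CPM of 12 genes in each mouse (points) by group, with the group median as a line and an axis from 0 in each panel. Cpt1b, Acadvl, Hadha, Etfdh, Mlycd and Bdh1 are higher and Acad12 is lower in every cold mouse than in any warm one. Mice labelled KO overlap with control mice at each temperature in all 12 panels.

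Ketone bodies are used by way of Bdh1, which turns 3-hydroxybutyrate into acetoacetate, Oxct1, which activates acetoacetate, and Acat1, which splits it into acetyl-CoA. Bdh1 was close to absent in warm mice. It passed the filter on low counts only through the cold groups, where it is high. Its folds and p-values for cold thus describe these counts and are no separate support. The 7 warm control mice had 0, 1, 1, 4, 1, 0 and 3 counts, and the 5 cold control mice 94, 51, 36, 34 and 43. Over the group, 258 counts against 10 gave a ratio of 33.6 after scaling (95% exact interval 18.0 to 70.8, which covers counting error only), and the fitted log2 fold change was 5.02 (SE 0.60, adjusted p = 4.10e-08). The 7 warm mice labelled KO had 2, 1, 0, 4, 7, 3 and 6 counts and the 7 cold ones 49, 19, 29, 95, 57, 11 and 39. The ratio was 15.5 (10.1 to 24.8) and the fitted value 3.91 (SE 0.51, adjusted p = 1.51e-07). Every cold mouse was above every warm one in both genotypes, but the level in the cold, 1.54 to 5.58 CPM in control mice and 0.619 to 5.66 in mice labelled KO, was the lowest of the 31 genes per length. Gm15743, which overlaps 13.7% of its exon length on the opposite strand, had at most 9 counts in any mouse. Oxct1 had -0.12 (SE 0.09) and -0.11 (SE 0.09), and Acat1 had 0.01 (SE 0.07) in control mice and 0.20 (SE 0.06, adjusted p = 0.00731) in mice labelled KO.

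Propionyl-CoA, left by chains with an odd number of carbons, is carried on by Pcca, Pccb and Mcee, and Mlycd removes malonyl-CoA. Of these 4, Mlycd was higher in both genotypes and the other 3 did not pass the threshold in either. Mlycd had 32.6, 41.6 and 48.5 CPM as lowest, median and highest in warm control mice. In the cold, control mice had 92.3, 84.2, 113, 86.6 and 87.5 CPM. All were well above the warm mice, at a log2 change of 1.19 (SE 0.14, adjusted p = 1.68e-08), or 2.29-fold. Mlycd in mice labelled KO went from 33.6 to 47.9 CPM (median 38.8) up to 78.3 to 158 (median 123), with the widest spread of the 4 groups, at 1.58 (SE 0.13, adjusted p = 2.20e-11), or 2.99-fold. Pccb had -0.14 (SE 0.06) in control mice with an adjusted p of 0.0521, which fell below 0.05 in 19 of the 35 other settings. Pcca had -0.19 (SE 0.11) and Mcee 0.02 (SE 0.11).

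Other genes of the pathway were taken from 4 lists, whose counts stand against 31.6% of all genes higher and 33.4% lower in cold control mice, and 33.7% and 34.9% in mice labelled KO. Of 7 tested genes of carnitine and acyl-CoA transport, 3 were higher and 3 lower in cold control mice, and 3 and 2 in mice labelled KO. Slc25a20, the carrier that exchanges acylcarnitines across the inner membrane, had a log2 fold change of 1.26 (SE 0.10) in control mice and 1.30 (SE 0.10) in mice labelled KO. Slc22a5, which takes carnitine into the cell, had 1.23 (SE 0.16) and 1.25 (SE 0.15). Crot, the peroxisomal octanoyltransferase, had -2.07 (SE 0.11) and -1.73 (SE 0.10), and Slc25a29 had -0.57 (SE 0.17) and -0.47 (SE 0.16). Bbox1 and Tmlhe were not tested.

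Of 13 genes that control malonyl-CoA or the transcription of β-oxidation genes, 7 were higher and 4 lower in cold control mice, and 6 and 4 in mice labelled KO. Ppargc1a, a coactivator of mitochondrial genes, had 4.07 (SE 0.21) and 3.95 (SE 0.20), and Esrrb, an estrogen-related receptor, 1.86 (SE 0.21) and 2.10 (SE 0.20). Acaca, which makes malonyl-CoA, had -2.48 (SE 0.23) and -1.57 (SE 0.20), and Ppara, a receptor for fatty acids, -1.17 (SE 0.12) and -1.03 (SE 0.11). Acaca thus fell where Mlycd, the enzyme of the opposite reaction, rose. Acacb, the other malonyl-CoA-making gene of the list, changed less. It had -0.30 (SE 0.12, adjusted p = 0.0272) in control mice and -0.19 (SE 0.10, adjusted p = 0.117, not past the threshold) in mice labelled KO.

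Of 19 tested further β-oxidation and helper enzymes, 3 were higher and 10 lower in cold control mice, and 6 and 8 in mice labelled KO. Etfbkmt, which methylates Etfb, had 0.82 (SE 0.16) and 0.98 (SE 0.15), and Ecsit, which works with Acad9 on complex I, 0.31 (SE 0.06) and 0.25 (SE 0.06). Acsm5, an acyl-CoA synthetase, had -1.36 (SE 0.20) and -1.04 (SE 0.18), and Echdc3 had -0.76 (SE 0.07) and -0.62 (SE 0.06). Hsd17b8 was not tested.

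Of 14 tested further ketone and propionate genes, 2 were higher and 8 lower in cold control mice, and 2 and 7 in mice labelled KO. Slc16a1, a transporter of lactate and ketone bodies, had 1.44 (SE 0.12) and 1.79 (SE 0.11), and Mmadhc, of vitamin B12 handling, 0.79 (SE 0.06) and 0.89 (SE 0.05). Aacs, which spends acetoacetate on lipid synthesis, had -2.84 (SE 0.16) and -2.56 (SE 0.14), and Hlcs, which attaches biotin to carboxylases, -1.76 (SE 0.16) and -1.43 (SE 0.14). Hmgcll1, Oxct2a and Oxct2b were not tested, and Mmut was tested under its older symbol Mut.

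Mice labelled KO were then compared with control mice at each temperature, as the study's question was what loss of Afadin does to BAT. At 30 °C, 0 of the 31 genes passed the threshold in edgeR's test, against 0.081% of all genes, and 0 with DESeq2. An unadjusted p under 0.05 was found for 2 of them, Hadha and Decr1, against 7.65% of all genes, and for 4 with DESeq2. The log2 fold change was below 0 for 30 of the 31, against 55.9% of all genes, while with library size alone it was above 0 for all 31 and the all-gene median went from -0.02 to 0.13. Measured from the median of all genes, the median of the 31 was -0.08 with TMM factors and -0.07 with library size alone. Approximate 95% intervals of the 30 genes other than Bdh1, from the SE and a normal distribution, lay between -0.32 (Hadhb) and 0.23 (Mlycd). They are slightly narrower than the test implies. Hadha, with the values per mouse given above, had -0.15 (SE 0.07, adjusted p = 0.639), Decr1 -0.15 (SE 0.07, adjusted p = 0.638) and Hadhb -0.16 (SE 0.08, adjusted p = 0.653). Control mice and mice labelled KO overlapped for each of the 31 genes. The share of all genes that overlapped is not given here, so this does not set the enzymes apart. The count of unadjusted p under 0.05 rose to 10 without control mouse 3 and to 9 without control mouse 7, and to 4 without warm mouse 13 or cold mouse 23 labelled KO. It was 0 without any one of control mice 1, 2, 5 and 6 or of mice 8 to 12 labelled KO. Without control mouse 7, 62 of all genes passed the adjusted threshold as higher and 31 as lower, against 10 and 4 with all mice, and 0 of the 31 did.

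At 5 °C, 0 of the 31 genes passed the threshold, against 0.139% of all genes, and 0 with DESeq2. An unadjusted p under 0.05 was found for 5 (Cpt1a, Acad10, Acaa2, Decr1 and Mlycd), against 13.4% of all genes, and for 4 with DESeq2. The log2 fold change was above 0 for 23, against 54.8% of all genes, with a median of 0.09 against 0.02 for all genes. Cpt1a had 0.24 (SE 0.08, adjusted p = 0.211), with mice labelled KO at 18.8 to 27.1 CPM and control mice at 18.2 to 20.3. Mlycd had 0.37 (SE 0.14, adjusted p = 0.238) and Acaa2 0.20 (SE 0.09, adjusted p = 0.317). Of the 30 genes other than Bdh1, Mlycd had the highest bound, with an approximate 95% interval, made as above, up to 0.64. The lowest bound of these 30 was that of Acad10, at -0.32, while the interval of Bdh1, with its low counts, ran from -0.95 to 0.67. The groups again overlapped for each of the 31 genes, also without a share of all genes beside it. Mice labelled KO were spread more widely for all 3 of Cpt1a, Mlycd and Acaa2. Leaving out 1 mouse moved the count of unadjusted p under 0.05 between 2 (without control mouse 16 or 17) and 7 (without mouse 22 labelled KO), and it was 3 without control mouse 19 or 21 or without mouse 23 or 28 labelled KO.

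The difference between the cold responses, mice labelled KO minus control mice, passed the threshold for 0 of the 31 genes, against 1.16% of all genes, and for 0 with DESeq2. An unadjusted p under 0.05 was found for 9 (Cpt1a, Acadm, Acad9, Hadha, Hadh, Echs1, Acaa2, Decr1 and Mlycd), against 16.2% of all genes, and for 12 with DESeq2. The estimate was above 0 for 28, against 56.7% of all genes, and for 13 with library size alone, where the all-gene median went from 0.04 to -0.15. The median of the 31 lay 0.14 above that of all genes with TMM factors and 0.13 above with library size alone. The smallest p belonged to Cpt1a, with a difference of 0.36 (SE 0.11, adjusted p = 0.114), then Decr1 with 0.32 (SE 0.11, adjusted p = 0.129) and Acaa2 with 0.34 (SE 0.12, adjusted p = 0.151). The count of 9 moved between 5 and 15 with 1 mouse left out, with 15 reached without warm control mouse 7. It was 5 without warm control mouse 1, 2 or 6, cold control mouse 21, warm mouse 8, 10 or 11 labelled KO, or cold mouse 23 or 28 labelled KO.

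**Figure D4:**
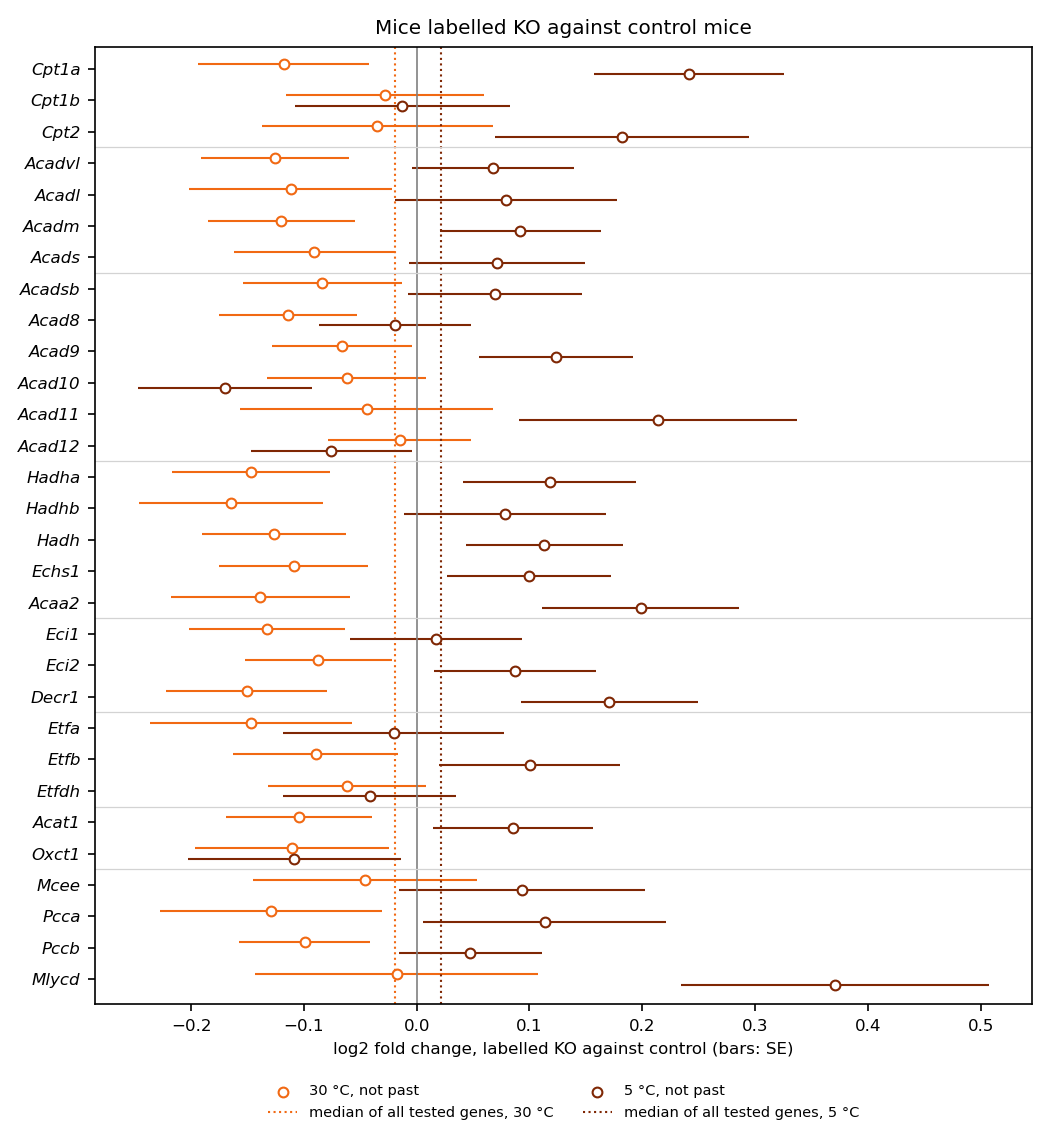
Log2 fold changes of mice labelled KO against control mice (bars are SE) at 30 °C and at 5 °C for 30 genes, with the median of all tested genes dotted. All points are open because none passed an adjusted p of 0.05. Under TMM scaling, which is what is drawn, the 30 °C points lie below 0 and most 5 °C points above it. With library size alone, not drawn, the 30 °C values were above 0. Bdh1, at 0.97 and -0.14, is not drawn.

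RNA composition moved with these groups. The summed CPM of 6 nuclear-retained RNAs (such as Malat1 and Neat1, all 6 found) ran from 8979 to 10595 in warm control mice and from 10448 to 11810.0 in warm mice labelled KO. In the cold it ran from 14871 to 16299 in control mice and from 10366 to 13598 in mice labelled KO, with no overlap. The 31 enzymes together ran from 12373 to 16221 and from 12686 to 14395 CPM in these warm groups, and from 14419 to 15929 and from 14385 to 17489 in the cold ones, with overlap between genotypes at each temperature. The part of RNA composition in the differences between mice labelled KO and control mice was not tested. Of the other marker lists, the 5 neutrophil genes reached 53.9 CPM in 1 cold mouse labelled KO against at most 9.96 in the cold control mice, and the 6 lymphocyte genes 14.03 against at most 1.959. In warm mice they stayed at or below 3.76 and 6.70, and Ly6g, a neutrophil surface marker, was below 0.1 CPM in every mouse of the 3 other groups. Summed endothelial (6 genes), macrophage (6), red blood cell (5), fibroblast (5) and Schwann cell (4) markers overlapped between control mice and mice labelled KO at each temperature. The endothelial sum was at 423 to 629.6 CPM over all warm mice and at 629.3 to 879.9 over all cold ones, and the Schwann cell sum at 44.8 to 61.95 and at 23.9 to 41.9. Their part in the cold response of the enzymes was not tested.

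Leaving out the 10 mice with more than 1000 CPM of skeletal muscle markers, a split added after the data were seen, kept 5, 4, 3 and 4 mice in the 4 groups. In cold control mice 6 enzymes were then higher and 9 lower, against 4873 and 5241 of the 17156 genes tested in this fit. In cold mice labelled KO 11 were higher and 4 lower, against 5012 and 5426 of all genes. In the comparisons between genotypes 0 of the enzymes passed. Of all genes, 9 were higher and 4 lower at 30 °C, and 4 and 1 at 5 °C. Cpt1a lost its call in control mice (-0.26, adjusted p = 0.0585), Pccb gained one (adjusted p = 0.0282), and Acadl and Etfa lost theirs in mice labelled KO (adjusted p = 0.146 and 0.296).

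**Figure D5:**
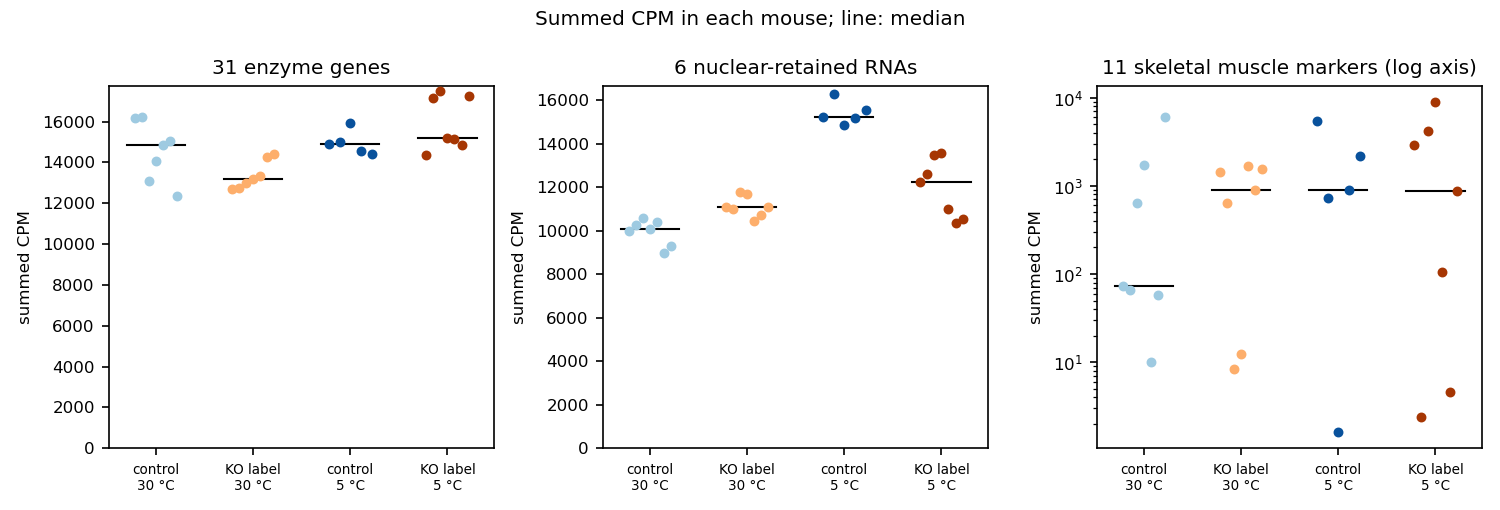
Summed CPM in each mouse (points, line at the group median) of the 31 enzyme genes, of 6 nuclear-retained RNAs and of 11 skeletal muscle markers, the last on a log axis. The enzymes overlap between groups, the nuclear-retained RNAs of cold control mice lie above all other mice, and the muscle markers spread widely within every group.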

How the data were processed

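RNA was extracted from BAT of 26 mice, and rRNA-depleted stranded TruSeq libraries were sequenced as single reads of 100 bases. Per the labels and methods, the authors aligned reads with STAR 2.5.2b to mm10, counted them per GENCODE M13 gene with featureCounts 1.5.2 and used edgeR; the deposited values are raw counts of reads per gene. The strand setting is not given in the sources used here. Symbols and exon lengths were taken from GENCODE M21 (GRCm38), and promoters from RefSeq.

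Genes were filtered by edgeR's filterByExpr, scaled by TMM and fitted with edgeR 4.0.16's quasi-likelihood test (R 4.3.3, limma 3.58.1) over all 4 groups, with Benjamini-Hochberg adjustment over 17286 genes and a threshold of 0.05. The scripts were tested on simulated data. DESeq2 1.42.0, other scalings, filters and fits, and each mouse left out, were alternatives. Exact permutation tests used scipy 1.17.1, alignments Biopython 1.88 and figures matplotlib 3.10.9.

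Members and lists were chosen with earlier results of these data known. Values per mouse are given for the genes of each role with the largest positive and the largest negative log2 fold change past the threshold in cold control mice, for the 3 smallest p-values in each comparison of genotypes and in the difference between cold responses, and for Cpt1a and Cpt1b; from each pathway list the 2 highest and 2 lowest genes past the threshold in cold control mice are named.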

Additional observations from a re-analysis of the deposited data

Results flagged for a closer look

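Of 52 sets of values (13 genes in 4 groups), 2 held a mouse far from the rest of its group, where chance picks out about 1 group in 20. Etfdh in cold mouse 28 labelled KO was at 1165.5 CPM, with the next highest mouse at 1035.4 and a gap of 0.724 of the range of the group. Mlycd in cold control mouse 18 was at 113 CPM, with the next at 92.3 and a gap of 0.721 of the range. Without these mice, both genes kept their direction and their call in the cold comparisons.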

How the results depend on the processing

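The total of the 31 genes past the threshold, higher and lower together, stayed within 1.5 times under each alternative, but its split did not: in cold mice labelled KO 13 higher and 4 lower became 6 and 12 with library size alone and 7 and 8 with upper-quartile factors, and in cold control mice 9 lower became 14 with upper-quartile factors. The counts of all genes under these scalings, which also moved, are given with the cold responses above. With library size alone 8 of the 31 values in cold mice labelled KO were above 0, against 23. With 1 mouse left out at a time, 13 to 18 passed in control mice and 16 to 18 in mice labelled KO, and 0 passed in the other 3 comparisons. For the 13 genes given per mouse, 19 values changed sign over the alternatives. With library size alone these were Cpt1a at -0.24 and Hadhb at -0.046 in cold mice labelled KO, Hadhb at -0.080 in cold control mice, and Hadha at 0.0044, Hadhb at 0.00070 and Decr1 at 0.0073 between genotypes at 30 °C. With upper-quartile factors they were Cpt1a at -0.071 in cold mice labelled KO and Hadhb at -0.076 in cold control mice. Hadhb in cold control mice was also -0.013 with at least 10 counts in every mouse, -0.014 with only the compared groups fitted, -0.017 without the mice high in muscle markers, and -0.059 to 0.071 with 1 mouse left out, negative without warm control mouse 7. Acaa2 in cold mice labelled KO was 0.027 without the mice high in muscle markers. Etfb in cold mice labelled KO was 0.0094 with DESeq2 and -0.055 to 0.029 with 1 mouse left out, positive without mouse 10, 11, 22, 26 or 27. The cause was not tested. For the same 13 genes, another 11 values lost their call (6 of them with 1 mouse left out) and 3 gained one. Of the other 18 genes, with library size alone in cold mice labelled KO, Acadl turned to -0.020, Eci2 to -0.013, Etfa to -0.091 and Acat1 to -0.12, all without a call. Acadsb turned to -0.25 (adjusted p = 0.0146), Acad9 to -0.30 (0.0212), Pcca to -0.28 (0.0023) and Pccb to -0.32 (0.000299), all called lower. Acadm, Acads, Acad11, Eci1 and Mcee also turned below 0 there, without a call. The low counts of Bdh1, 0 to 7 in warm mice, limit its fold. No paired analysis was possible because the mouse numbers are not shared between groups.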
